A study of Mus musculus with 40 samples.

Results

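The elements described here are the mouse endogenous retroviruses of the ERVK family other than the intracisternal A particles (IAP). They were taken from the deposited table of transposable elements (TE) by name: every row with the family ERVK whose subfamily does not start with IAP. The rule gave 260 of 1146 TE subfamilies and left out 25 IAP rows of the 285 ERVK rows. Of the 260 members, 36 were internal parts and 224 were long terminal repeats (LTR).

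ERVK elements derive from retroviruses related to the betaretroviruses. A complete copy has an internal part, with gag and pol genes, between a pair of LTRs that carry its promoter and polyadenylation signal. Many copies in the genome are single LTRs. In mouse embryonic cells they are kept silent by DNA methylation, laid down by Dnmt3a and Dnmt3b and maintained by Dnmt1, and by histone H3 lysine 9 methylation through Trim28 and Setdb1. Cytosolic DNA, which can arise from reverse transcription, is sensed through Sting.

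RNA was measured in 40 libraries of bone marrow cells from mice, made from polyA RNA with a modified SMART-Seq2 amplification. Each of 3 sorted populations, namely long-term haematopoietic stem cells (LT-HSC), their short-term counterparts (ST-HSC) and the pooled common myeloid and granulocyte-macrophage progenitors (CMP/GMP), had 4 Dnmt3a knockout (KO) and 4 wild-type (WT) libraries, and megakaryocyte-erythroid progenitors (MEP) had 4 and 3. The c-kit+ bone marrow cells, a mixed progenitor fraction, had 2 WT, 2 Dnmt3a KO, 2 Sting KO and 3 Dnmt3a/Sting double knockout (DKO) libraries. The knockout joined floxed Dnmt3a with Mx1-Cre, whose interferon-inducible promoter is active in many tissues. The sources used here do not give its induction, the ages of the mice or whether WT mice carried the recombinase. Nothing in the labels says that replicates came from separate animals, so the tests take the spread between libraries, which may be technical, as their error.

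Gene reads, in units of 1000000 reads, ranged from 27.4 to 39.97 in c-kit+, 33.2 to 47.7 in CMP/GMP, 16.9 to 45.8 in LT-HSC and 3.44 to 36.0 in MEP libraries. TE reads came to between 2.22 and 12.4 per 100 gene reads. The 5 libraries above 9 stood apart, namely LT-HSC WT 1, LT-HSC Dnmt3a KO 2 and MEP Dnmt3a KO 2, 3 and 4. Dnmt3a itself averaged 48.6 against 85.5 counts per 1000000 gene reads (CPM) in c-kit+ Dnmt3a KO and WT libraries (edgeR, adjusted p = 0.032). It did not pass in the sorted cells, where LT-HSC Dnmt3a KO 3 (119 CPM) lay above 3 of the 4 WT libraries. MEP Dnmt3a KO 2 (41.9 CPM) lay inside the MEP WT range of 29.4 to 49.5. The CMP/GMP Dnmt3a KO libraries, at 15.8 to 33.5 CPM, lay wholly below WT, at 49.8 to 83.0. In c-kit+ cells, Tmem173, the gene of Sting, averaged 60.2 CPM in WT against 9.89 CPM in Sting KO (edgeR, adjusted p = 4.22e-05). The 5 defining markers of LT-HSC, CMP/GMP and MEP summed highest in their own population, apart from the CMP/GMP markers, which c-kit+ cells shared. ST-HSC, which has no assigned gene counts, was not checked. LT-HSC WT 1 held the myeloid gene Mpo at 1378 CPM, against 0.913 to 3.87 CPM in the other LT-HSC WT libraries. MEP Dnmt3a KO 1 and 2 held it at 590 and 1884 CPM, against at most 268 CPM in MEP WT. In MEP Dnmt3a KO 2 the MEP markers Klf1 (113 CPM) and Gfi1b (117 CPM) lay inside the CMP/GMP ranges of 70.3 to 153 and 85.8 to 186. Its Gata1, Epor and Car1, at 199, 285 and 2359 CPM, lay above every CMP/GMP library. The c-kit+ libraries also held neutrophil genes: Ltf, Camp and Retnlg summed to between 1157 and 5652 CPM, against at most 2.31 CPM in any sorted library with gene counts. The macrophage genes Adgre1, Mrc1 and C1qa summed to 25.7 to 324 CPM in c-kit+ and to at most 20.6 CPM in sorted libraries.

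Most members were detected. A read was found for 256 members in at least 1 library and for 162 in all 40, and 4 members had none. Over the 32 libraries with gene counts, 208 members averaged at least 1 read per 1000000 gene reads (RPM), 68 at least 10 and 4 at least 100. The median member averaged 3.92. The highest were MMETn-int at 297, RLTR19-int at 229, RLTR17B_Mm at 156, RMER19B at 144, RMER6A at 73.7 and RLTR20A4 at 62.7 RPM. These counts sum over all copies and are not corrected for length, so they do not rank the elements by transcription.

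Members took 3.80 to 6.38% of TE reads in the 31 sorted libraries and 7.91 to 10.01% in the 9 c-kit+ libraries, with no overlap. In WT libraries the share was 5.19% ± 0.471 (SD, n = 4) in LT-HSC, 5.34% ± 0.0409 (n = 4) in ST-HSC, 5.14% ± 0.275 (n = 4) in CMP/GMP, 5.08% ± 0.181 (n = 3) in MEP and 9.22% ± 0.523 (n = 2) in c-kit+ cells. Neighbouring sorted populations thus differed by less than the spread of LT-HSC WT. The internal parts made the gap. They took 3.48 to 5.55% of TE reads in c-kit+ and 0.709 to 2.43% in sorted libraries, while LTRs took 4.43 to 4.62% and 2.78 to 4.71%. The IAP rows, which are no members, also took more in c-kit+ (2.28 to 3.46%) than in sorted libraries (0.802 to 1.99%). In bulk libraries, fewer cells of a type and less RNA per cell cannot be told apart.

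**Figure D1:**
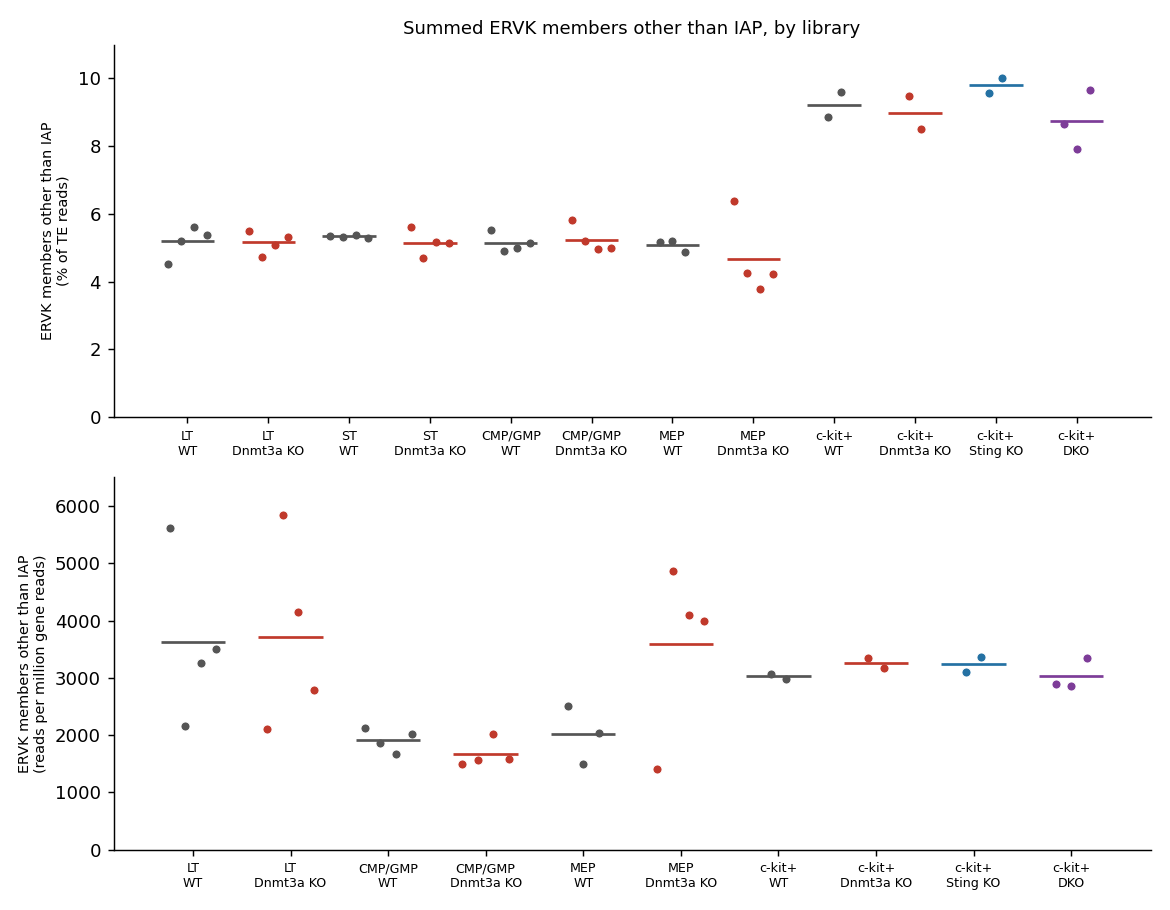
Summed ERVK members other than IAP in each library (points), as percent of TE reads (top, 12 groups) and as RPM (bottom, without ST-HSC, which has no assigned gene total); lines are group means. The c-kit+ libraries lie at 7.91 to 10.01% of TE reads, above all sorted libraries, and the gene-scaled values spread most in LT-HSC and MEP Dnmt3a KO.

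Scaled to gene reads, the order was different. Members came to 3633 ± 1441 RPM (SD, n = 4) in LT-HSC WT, 3026 ± 61.5 (n = 2) in c-kit+ WT, 2014 ± 511 (n = 3) in MEP WT and 1921 ± 204 (n = 4) in CMP/GMP WT. LT-HSC WT libraries ran from 2167 to 5612 and so reached below and above the c-kit+ values. The 5 libraries with many TE reads were among the highest on this scale, at 3985 to 5846.

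The ETn/MusD elements made up much of the c-kit+ share. ETn, the early transposons, are retroelements without coding genes that use the proteins of related elements such as MusD, and their new insertions are a known source of mouse mutations. The 5 members with these names, MMETn-int, ETnERV-int, ETnERV2-int, ETnERV3-int and the LTR RLTRETN_Mm, took 25.03 and 28.4% of the member reads in the 2 c-kit+ WT libraries. They took 1.14 to 3.99% in ST-HSC WT, 2.24 to 4.33% in LT-HSC WT, 4.57 to 9.13% in CMP/GMP WT and 10.9 to 12.3% in MEP WT.

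MMETn-int gave 19.5 and 24.3 reads per 1000 TE reads in c-kit+ WT cells. The WT values were 4.53, 5.24 and 5.39 in MEP, 1.80, 2.02, 2.18 and 4.34 in CMP/GMP, 0.648, 0.730, 0.910 and 1.54 in LT-HSC and 0.270, 0.325, 0.465 and 1.63 in ST-HSC. MEP and c-kit+ WT therefore stood above the stem cells without overlap, while LT-HSC and ST-HSC overlapped. RLTRETN_Mm, its LTR, followed in c-kit+ cells (0.727 to 2.06 per 1000 TE reads in 9 libraries) but not in MEP WT, where it lay at 0.0657, 0.119 and 0.347. There were 16.8 and 17.3 MMETn-int reads for each RLTRETN_Mm read in c-kit+ WT libraries, 15.1 to 82.1 in MEP WT and 3.85 to 8.41 in LT-HSC WT. ETnERV-int, a related internal part, gave 1.01 to 1.77 reads per 1000 TE reads in c-kit+ libraries and 0.0359 to 0.987 in sorted ones, so the ranges did not overlap.

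**Figure D2:**
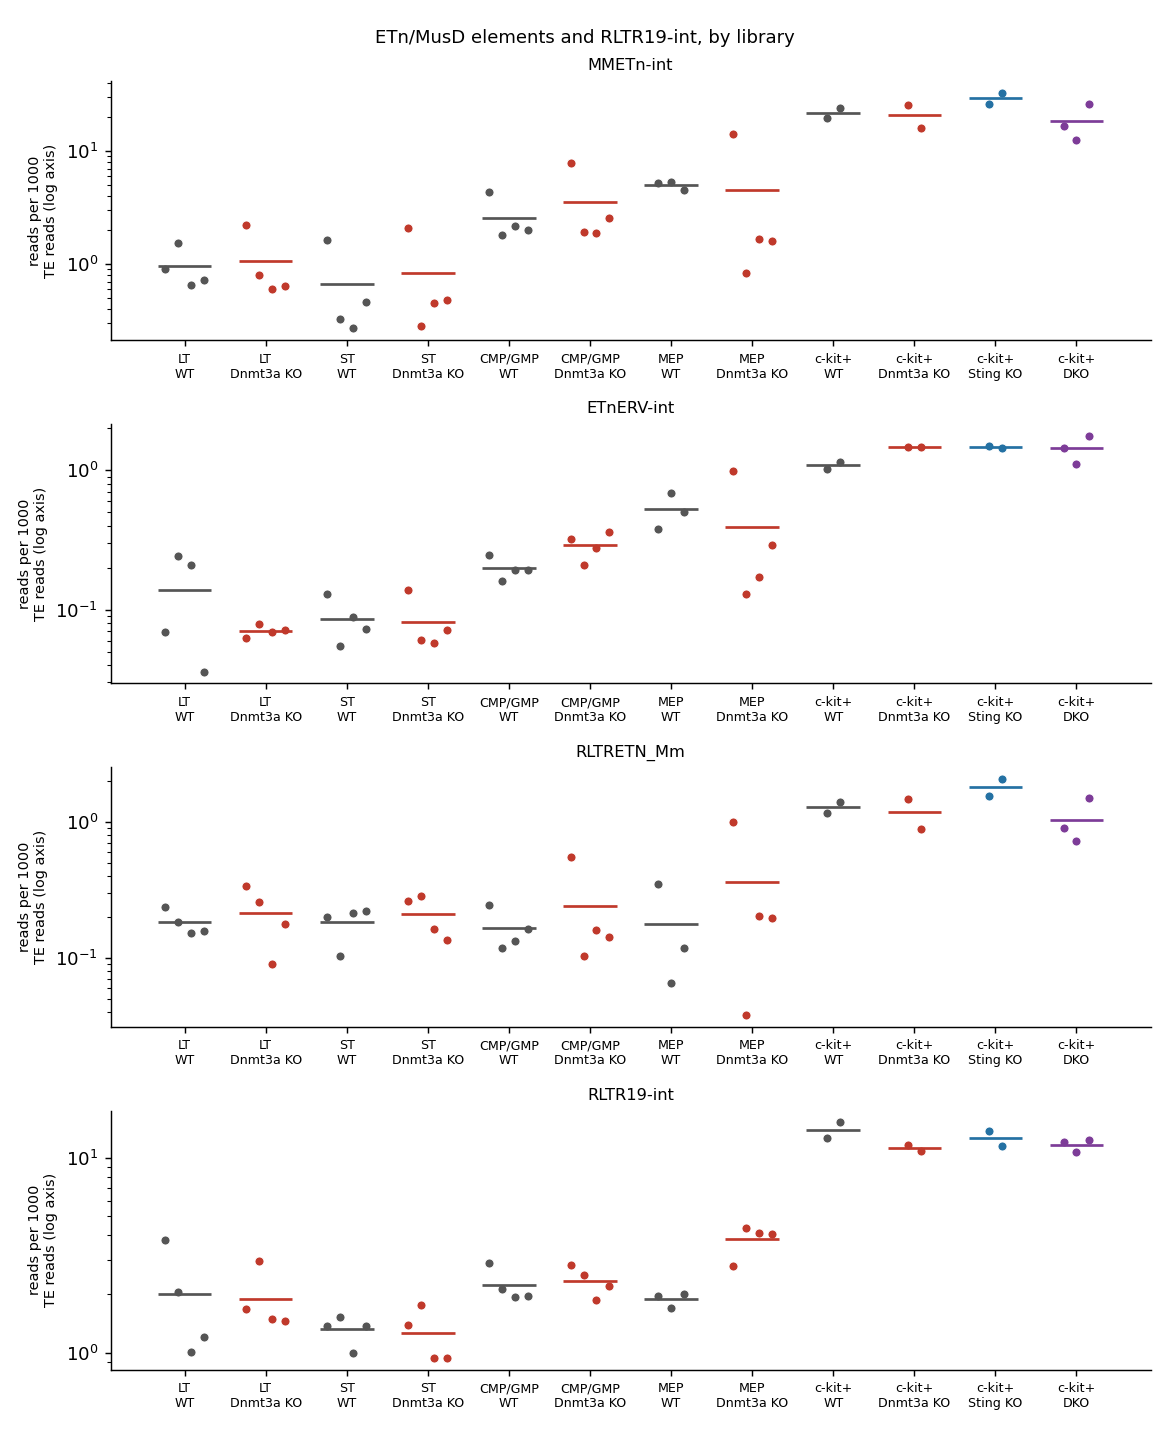
Reads per 1000 TE reads (log axes) of MMETn-int, ETnERV-int, RLTRETN_Mm and RLTR19-int in each of the 40 libraries (points); lines are group means. All c-kit+ libraries lie high, and MEP Dnmt3a KO 1, at 14.2 for MMETn-int, lies in the c-kit+ range.

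RLTR19-int, another internal part, gave 10.6 to 15.1 reads per 1000 TE reads in c-kit+ and 0.941 to 4.36 in sorted libraries. The LTR RLTR19 did not share this, with 0.109 to 0.185 in c-kit+ libraries, inside the sorted range of 0.034 to 0.271. Without MMETn-int and RLTR19-int, the remaining members took 5.65% ± 0.00588 (SD, n = 2) of TE reads in c-kit+ WT, 5.14% ± 0.0889 (n = 4) in ST-HSC WT, 4.89% ± 0.607 (n = 4) in LT-HSC WT, 4.66% ± 0.136 (n = 4) in CMP/GMP WT and 4.39% ± 0.145 (n = 3) in MEP WT. All c-kit+ libraries, at 5.58 to 5.80%, still lay above all sorted libraries, at 3.22 to 5.46%. Other members went the opposite way. The LTR RLTR25A gave 0.216 to 0.271 reads per 1000 TE reads in c-kit+ and 0.422 to 2.88 in sorted libraries, and ERVB7_2-LTR_MM 0.0754 to 0.136 and 0.142 to 0.864. RLTR45 was high in c-kit+ cells, at 0.279 to 0.377 against 0.0157 to 0.116. RLTR25A was chosen after its values were seen.

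**Figure D3:**
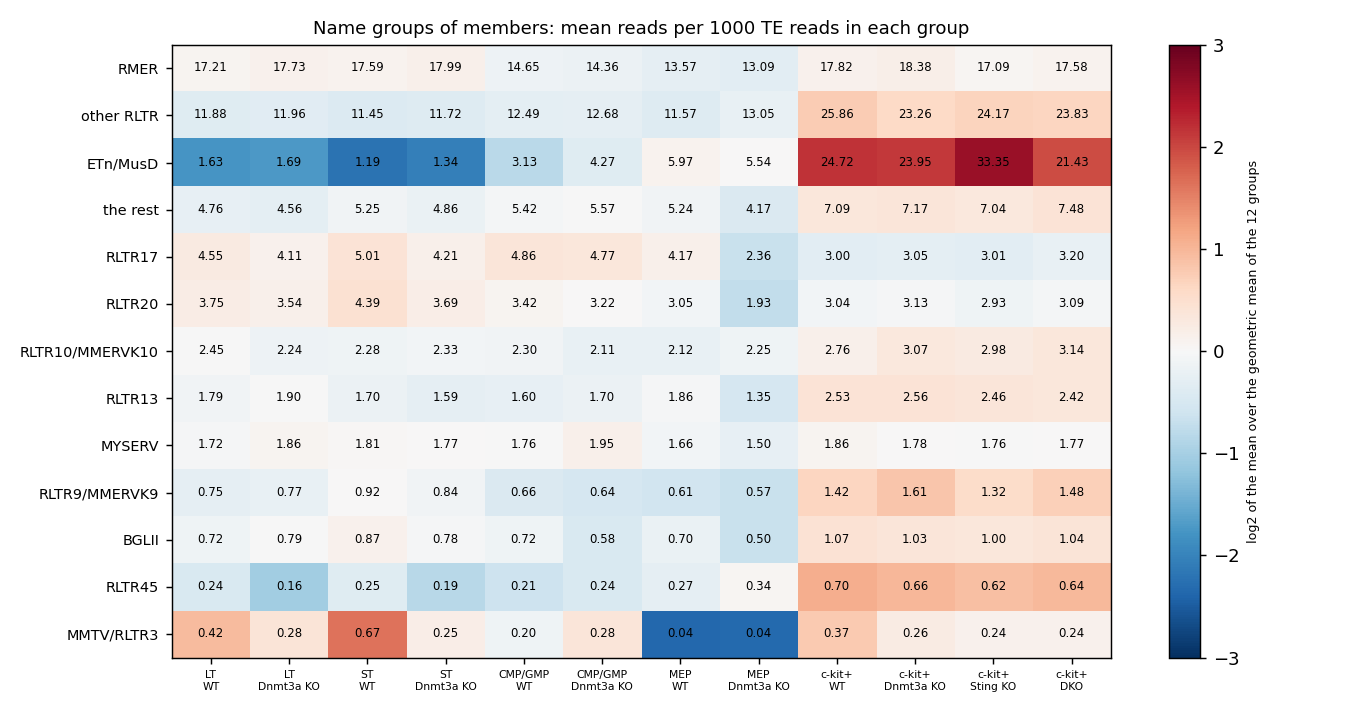
Mean reads per 1000 TE reads of the members grouped by name (rows) in the 12 groups (columns); colour is the log2 of that mean over the geometric mean of the row. ETn/MusD runs from 1.18 in ST-HSC WT to 33.3 in c-kit+ Sting KO, while MMTV/RLTR3 is lowest in MEP WT, at 0.0422.

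Other name groups spanned narrower ranges. MYSERV, with 3 members, ran from 1.496 to 1.95 reads per 1000 TE reads over the 12 group means, and RLTR10/MMERVK10, with 13, from 2.11 to 3.14. The 4 c-kit+ means of RLTR10/MMERVK10, at 2.76 and above, lay over the 8 sorted means, at 2.45 and below, while single libraries overlapped. The 46 RMER members ran from 13.1 to 18.4, with the CMP/GMP and MEP means lowest. MMERVK10C-int, an element that rises in mouse embryonic cells without Trim28 or Setdb1, gave 0.660 to 0.992 reads per 1000 TE reads in c-kit+ and 0.126 to 0.814 in sorted libraries, which overlapped. MMTV-int and RLTR3_Mm, the internal part and the LTR of mouse mammary tumour virus, a betaretrovirus, had few reads in MEP. MMTV-int had 6, 18 and 65 reads in MEP WT against 44, 149, 1176 and 1252 in LT-HSC WT.

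Further internal parts and abundant LTRs differed in where they were high. RLTR10-int gave 0.955 to 1.16 reads per 1000 TE reads in c-kit+ libraries and 0.316 to 0.892 in sorted ones, without overlap. MMERVK9E_I-int gave 0.517 to 0.746 and 0.142 to 0.454, also without overlap, and MMERVK9C_I-int gave 0.254 to 0.403 and 0.0422 to 0.302, which overlapped. ETnERV3-int did not share the c-kit+ level of MMETn-int, with 0.191 to 0.243 in c-kit+ libraries inside the sorted range of 0.0382 to 0.440. ETnERV2-int gave 0.0946 to 0.320 and 0.00124 to 0.219. MYSERV-int, at 0.281 to 0.363 in c-kit+, and the LTR RMER17A, at 0.129 to 0.194, also lay inside their sorted ranges of 0.0545 to 0.501 and 0.0536 to 0.396. The same held for the LTRs RLTR17B_Mm, RMER19B, RMER6A and RLTR20A4.

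Whether loss of Dnmt3a raised these elements was asked in each cell type with the whole TE table in the fit. In LT-HSC no member was called (edgeR, 222 members tested), and 0.0% of the 904 TE subfamilies were called. An unadjusted p under 0.05 was reached by 3 members and 9 subfamilies in all, and DESeq2 also called no member. The median member differed by a log2 fold change of 0.04 and the median TE subfamily by 0.05. MMETn-int gave 33.8, 49.2, 85.5 and 98.1 RPM in Dnmt3a KO and 37.5, 47.5, 64.0 and 113 in WT cells, which overlapped throughout. Its log2 fold change was 0.04 (SE 0.528; edgeR, adjusted p = 0.998).

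In ST-HSC, where TE reads set the scale, no member of 228 was called and 0.0% of 944 subfamilies were called. The unadjusted p was under 0.05 for 14 members and 48 subfamilies, and DESeq2 called no member. The smallest adjusted p among members was 0.647, for MMTV-int. It gave 0.0844, 0.153, 0.179 and 0.260 reads per 1000 TE reads in Dnmt3a KO and 0.212, 0.385, 0.478 and 0.729 in WT. The groups overlapped through 1 library on each side (log2 fold change -1.40, SE 0.386). RLTR3_Mm differed by -1.48 (SE 0.584; edgeR, adjusted p = 0.847). MMTV-int and its LTR were thus both lower in KO means without passing the test. ST-HSC Dnmt3a KO 3 and 4 were closer to each other than any other pair of replicates, and may not be independent.

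In CMP/GMP no member of 224 was called, and 0.0% of 893 subfamilies were called. An unadjusted p under 0.05 was reached by 19 members and 61 subfamilies, and DESeq2 called no member. The median member differed by -0.23 and the median subfamily by -0.20, so the members lay with the rest of the table. Summed members came to 1668 ± 240 RPM (SD, n = 4) in Dnmt3a KO and 1921 ± 204 (n = 4) in WT, which overlapped. As a share of TE reads they were 5.24% ± 0.396 and 5.14% ± 0.275. RLTR10C, an LTR of the MMERVK10 group, gave 4.60, 4.92, 8.28 and 10.7 RPM in KO and 8.61, 12.3, 12.4 and 13.0 in WT (log2 fold change -0.70, SE 0.280; edgeR, adjusted p = 0.622). RLTR17B_Mm, one of the most abundant LTRs, gave 119 to 143 in KO and 146 to 167 in WT. Those groups did not overlap (log2 fold change -0.28, SE 0.143; edgeR, adjusted p = 0.622), and on TE reads the difference was -0.07.

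In MEP the 220 members tested gave no call, and 0.0% of 858 subfamilies were called. There, 35 members and 141 subfamilies had an unadjusted p under 0.05, and DESeq2 called 6 members, 5 of them higher in KO, where it called 3.03% of subfamilies. The median member differed by 0.60 and the median subfamily by 0.83, so the median member lay below the median TE. Scaled to TE reads, the median member differed by -0.16. Summed members came to 1416 RPM in Dnmt3a KO 1 and to 3985, 4103 and 4861 in KO 4, 3 and 2, against 1492 to 2513 in WT. KO 1 lay below every WT library and the other 3 above. Without it, 67 members were called, 53 higher and 14 lower, where 44.0% of 827 subfamilies were called. KO 2, 3 and 4 are also the MEP libraries with over 9 TE reads per 100 gene reads, and without them the median member differed by -0.85. The part of that TE level in the result was not tested.

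RLTR19-int lay above WT in 3 of 4 MEP Dnmt3a KO libraries on gene reads and in all 4 on TE reads. It gave 62.1, 381, 447 and 496 RPM in Dnmt3a KO and 48.8, 83.4 and 94.7 in WT, with KO 1 inside the WT range. Per 1000 TE reads the KO values were 2.80, 4.05, 4.13 and 4.36 and the WT values 1.70, 1.95 and 1.995, without overlap. Its log2 fold change was 2.35 (SE 0.758; edgeR, adjusted p = 0.270) on gene reads and 1.38 (adjusted p = 0.270) on TE reads. MMETn-int did not follow, with 95.6, 152, 179 and 315 RPM in KO and 155, 189 and 254 RPM in WT. Nor did the LTR RLTR19, with 3.199, 3.822, 5.097 and 6.105 RPM in KO and 4.969, 5.051 and 9.361 RPM in WT. Its log2 fold change was -0.38 (SE 0.8445, edgeR adjusted p = 0.778). ERVB4_1B-I_MM-int, an internal part chosen after its values were seen, gave 0.193, 0.288, 0.872 and 1.26 in KO and 3.41, 3.92 and 4.80 in WT. Those groups did not overlap, and the log2 fold change was -2.57 (SE 1.07; edgeR, adjusted p = 0.279).

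The difference of the Dnmt3a effect between LT-HSC, CMP/GMP and MEP was tested itself with an F-test. No member of 242 was called (edgeR), and 0.0% of 1015 subfamilies were called. Before adjustment 54 members and 167 subfamilies had a p under 0.05, DESeq2 called 1 member, where it called 0.296% of subfamilies, and 43 members were called without MEP Dnmt3a KO 1, where 18.0% of 1014 subfamilies were called. The smallest adjusted p among members was 0.243.

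In c-kit+ cells the members of Dnmt3a KO and WT libraries differed little. No member of 236 was called and 0.328% of 916 subfamilies were called. An unadjusted p under 0.05 was reached by 41 members and 124 subfamilies, and DESeq2 called 2 members, both higher, where it called 0.873% of subfamilies. The fold change was above 0 for 181 of 236 members and 712 of 916 subfamilies, with medians of 0.15 and 0.16. On TE reads the median member differed by -0.02. Both Dnmt3a KO libraries express Xist and both WT libraries express Y genes, so genotype and sex coincide in this pair of groups and could only be separated through the DKO libraries, of which 1 of 3 expresses Xist. With a term for sex no member was called.

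ETnERV-int and ERVB4_1B-I_MM-int came closest. ETnERV-int gave 51.8 and 54.8 RPM in Dnmt3a KO, 48.4 and 48.9 in Sting KO, 40.2, 48.4 and 61.1 in DKO and 35.2 and 35.8 in WT. All 7 knockout libraries lay above both WT libraries. Markers of other cell types split the same libraries. The 3 macrophage genes summed to 292 and 324 CPM in WT and to 25.7 to 109 CPM in the knockouts. The stromal and endothelial genes Col1a2, Cxcl12 and Cdh5 summed to 105 and 122 against 12.2 to 88.9. The 5 MEP markers summed to 1032 and 1047 against 436 to 852. Most of that sum was Car1, at 845 and 863 CPM in WT against 327 to 616. Gata1, Klf1 and Epor were instead higher than WT in both Dnmt3a KO libraries and DKO 1, and lower in the other knockouts. The 5 CMP/GMP markers summed lower in WT, at 12712 and 12953 CPM against 14313 to 18972, although Prtn3 and Ctsg taken singly overlapped. Their part in the ETnERV-int difference was not tested. The log2 fold change against WT was 0.59 (SE 0.133; edgeR, adjusted p = 0.0502) in Dnmt3a KO, 0.49 (SE 0.133; adjusted p = 0.196) in Sting KO and 0.53 (SE 0.123; adjusted p = 0.0697) in DKO. The 3 comparisons share the WT libraries. Under the alternatives the adjusted p in Dnmt3a KO ran from 0.00691 to 0.487, and 7 of 15 called it. On TE reads its log2 fold change was 0.42 (edgeR, adjusted p = 0.452). ERVB4_1B-I_MM-int gave 5.63 and 7.33 RPM in Dnmt3a KO and 3.08 and 3.90 in WT (log2 fold change 0.89, SE 0.203; edgeR, adjusted p = 0.0502).

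MMERVK9E_I-int, an internal part of the MMERVK9 group, gave 22.5 and 27.8 RPM in Dnmt3a KO, 20.9, 21.2 and 23.4 in DKO, 17.2 and 17.4 in Sting KO and 18.0 and 18.9 in WT. Libraries without Dnmt3a lay above the rest, and the log2 fold change of Dnmt3a KO was 0.44 (SE 0.118; edgeR, adjusted p = 0.0928). On TE reads it was 0.27 (adjusted p = 0.429). MMETn-int gave 600 and 902 in Dnmt3a KO, 455, 562 and 911 in DKO, 854 and 1107 in Sting KO and 676 and 754 in WT. Dnmt3a KO and DKO spanned the WT range, and only Sting KO lay wholly above it.

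**Figure D4:**
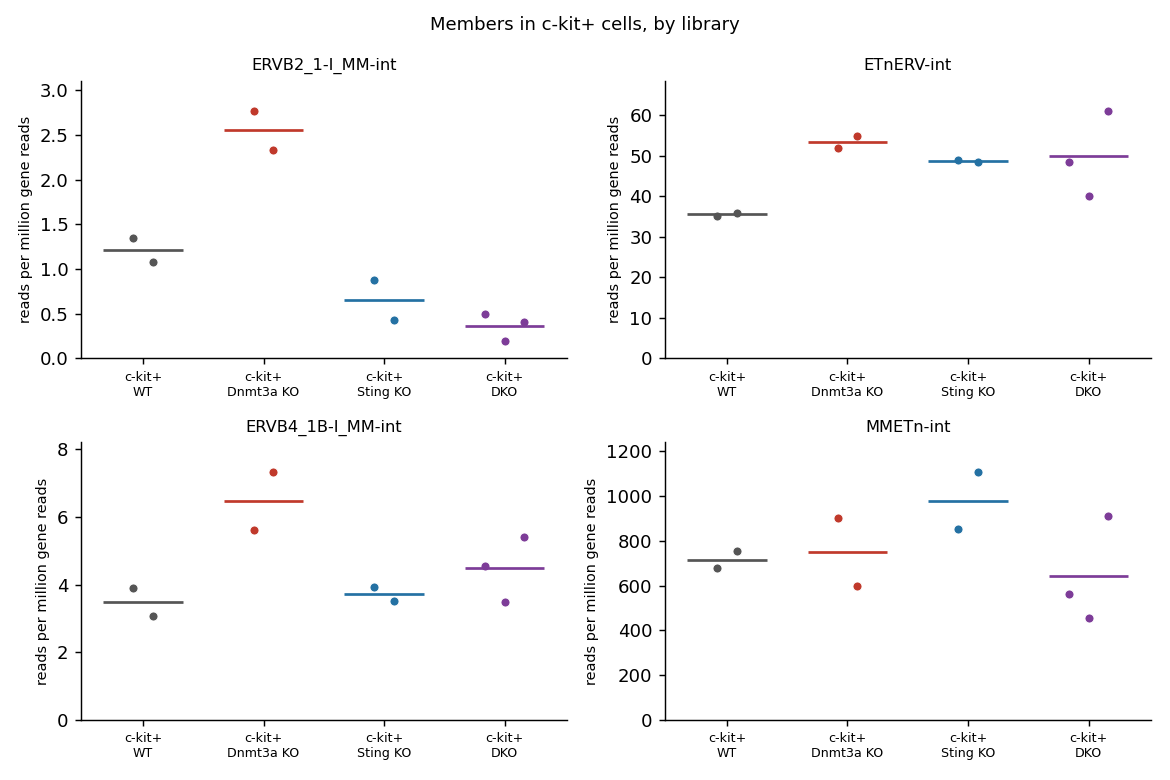
Reads per 1000000 gene reads (RPM) of 4 internal parts in the 9 c-kit+ libraries (points); lines are group means and each axis starts at 0. ERVB2_1-I_MM-int has its lowest mean in DKO, where libraries lie at 0.192 to 0.497 and overlap Sting KO. ETnERV-int is lowest in WT, at 35.2 and 35.8.

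Loss of Sting alone gave no call against WT among 236 members, where 0.218% of 916 subfamilies were called (edgeR; 18 members and 54 subfamilies with an unadjusted p under 0.05). DESeq2 called no member. DKO against WT gave none either, where 0.218% were called (36 members and 103 subfamilies with an unadjusted p under 0.05), and DESeq2 called 5, where it called 0.983% of subfamilies. DKO against Sting KO gave none, where 0.328% were called (26 and 77), and DESeq2 called none. The interaction of the 2 losses gave none, where 0.437% were called (14 and 43), and DESeq2 called none. MMETn-int was 0.62 lower on the log2 scale in DKO than in Sting KO (SE 0.216; edgeR, adjusted p = 0.502), and the groups overlapped.

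ERVB2_1-I_MM-int was the only member called in a genotype comparison, and it fell in DKO against Dnmt3a KO, where 0.109% of 916 subfamilies were called. This low-count internal part of an ERVB element had 101 and 64 reads in Dnmt3a KO, 17, 6 and 15 in DKO, 32 and 15 in Sting KO and 42 and 43 in WT. That is 2.77 and 2.33 RPM in Dnmt3a KO, 0.192 to 0.497 in DKO, 0.430 and 0.877 in Sting KO and 1.08 and 1.34 in WT. Dnmt3a KO lay above every other library. The log2 fold change was -2.74 (SE 0.338; edgeR, adjusted p = 0.000525), and 14 of 15 alternatives called it. With a term for sex it was -2.33 (adjusted p = 0.0783). The interaction was -1.91 (SE 0.516; edgeR, adjusted p = 0.266). In sorted libraries the element had between 0 and 22 reads. The 5 long-term stem cell markers summed to 58.7 and 76.8 CPM in Dnmt3a KO and to 38.9 to 56.3 CPM in DKO. Of these, Procr and Slamf1 overlapped. The 3 T and NK cell markers summed to 6.53 and 7.33 against 3.16 to 3.84. That difference lay in the NK cell gene Ncr1, at 5.43 and 6.56 against 2.16 to 3.16. The T cell genes Cd3d and Cd3e, at most 0.878, overlapped. Their part in the difference was not tested.

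Among WT cells, LT-HSC had a higher RPM for most members than CMP/GMP or MEP, but no member was called. Against CMP/GMP, 197 of 233 members were higher, the median log2 fold change was 0.76, and 0.725% of 965 subfamilies were called. The median subfamily differed by 0.79, and on TE reads the median member differed by 0.02. At an unadjusted p under 0.05 were 72 members and 378 subfamilies. DESeq2 called 54 members, where 28.3% of subfamilies were called. Without LT-HSC WT 2, the lowest of its group, 71 members were called, where 39.9% of 953 subfamilies were called, and without LT-HSC WT 1, the highest, 9, where 3.02% of 961 were called. On TE reads no member was called, where 0.415% of subfamilies were called. RMER19B, the member with the lowest adjusted p, gave 178, 296, 309 and 378 RPM in LT-HSC and 85.3, 103, 123 and 129 in CMP/GMP. These groups did not overlap (log2 fold change 1.22, SE 0.297; edgeR, adjusted p = 0.0586), and on TE reads the difference was 0.47 (adjusted p = 0.181).

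Against MEP, 191 of 233 members were higher in LT-HSC with a median of 0.68, where the median subfamily differed by 0.75 and 0.622% of 965 were called. An unadjusted p under 0.05 was reached by 61 members and 271 subfamilies, and DESeq2 called 24 members, where it called 13.0% of subfamilies. On TE reads 2 members were called, both lower in LT-HSC, where 0.933% of subfamilies were called. Without LT-HSC WT 2, 45 members were called, where 23.9% of 953 subfamilies were called, and without LT-HSC WT 1, 3, where 1.56% of 961 were called. MMETn-int went against this direction. It gave 37.5, 47.5, 64.0 and 113 RPM in LT-HSC and 155, 189 and 254 in MEP, without overlap. Its log2 fold change was -1.80 (SE 0.419; edgeR, adjusted p = 0.0592) on gene reads and -2.53 (adjusted p = 0.00102) on TE reads. MMTV-int differed by 3.80 (SE 0.909; edgeR, adjusted p = 0.0592), with LT-HSC WT 1 at 2.19 RPM below MEP WT 4 at 2.25, and RLTR3_Mm by 3.62 (SE 0.904; adjusted p = 0.0592).

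CMP/GMP against MEP gave no call among 233 members, where 0.0% of 965 subfamilies were called (edgeR; 11 members and 43 subfamilies with an unadjusted p under 0.05), and DESeq2 called 1, where it called 0.415% of subfamilies. LT-HSC against ST-HSC, on TE reads, gave none among 229, where 0.0% of 935 were called (4 and 29), and DESeq2 called none. ETnERV-int gave 18.4, 19.9 and 21.1 RPM in MEP and 6.11 to 9.55 in CMP/GMP, without overlap (log2 fold change of CMP/GMP over MEP -1.44, SE 0.446; edgeR, adjusted p = 0.599).

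**Figure D5:**
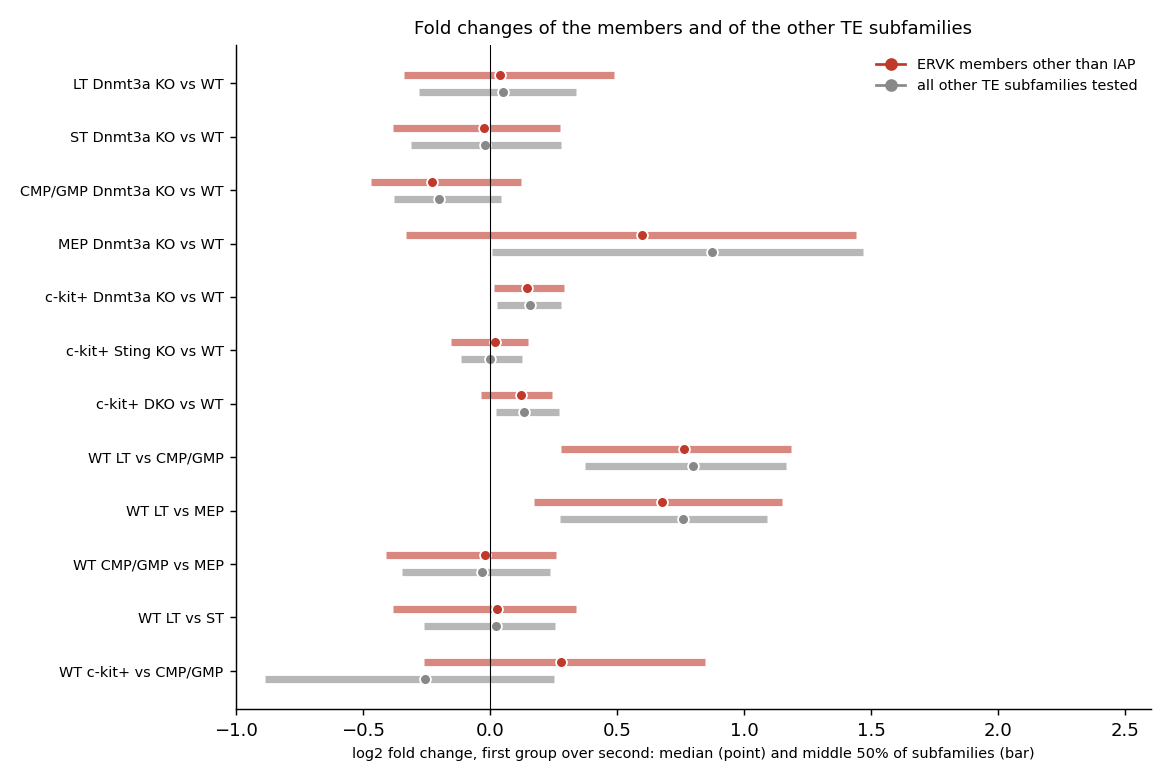
Log2 fold changes (first group over second) of the members (red) and of the other TE subfamilies tested (grey) in 12 comparisons: medians (points) and the middle 50% of subfamilies (bars). The 2 medians lie close together except in c-kit+ against CMP/GMP WT, at 0.28 and -0.26, and in MEP, at 0.60 and 0.87.

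The comparison of WT c-kit+ cells with WT CMP/GMP was added after the levels were seen. It called 6 of 245 members, 5 higher and 1 lower in c-kit+ cells, where 1.38% of 1012 subfamilies were called. The median member differed by 0.28 and the median subfamily by -0.15. On TE reads 24 members were called, where 6.74% of 1009 subfamilies were called. MMETn-int rose by 2.88 on the log2 scale (SE 0.434; edgeR, adjusted p = 0.00364), with 676 and 754 RPM in c-kit+ against 68.0, 72.7, 79.5 and 167 in CMP/GMP. RLTRETN_Mm rose by 2.74 (SE 0.638; adjusted p = 0.0401) and ETnERV-int by 2.25 (SE 0.447; adjusted p = 0.0133). RLTR45 rose by 2.28 (SE 0.526; adjusted p = 0.0401), from 1.69 to 3.45 RPM in CMP/GMP to 11.7 and 11.8. RLTR13A1, with 1, 1, 3 and 16 reads in CMP/GMP WT and 105 and 144 in c-kit+ WT, rose by 4.55 (SE 1.07; adjusted p = 0.0401). Its c-kit+ WT level, at 2.63 and 4.61 RPM, overlapped that of LT-HSC WT, at 2.54 to 3.78. ERVB7_2-LTR_MM fell, from 10.2, 13.1, 16.7 and 29.5 to 3.93 and 4.23 (log2 fold change -2.10, SE 0.452; adjusted p = 0.0263).

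RLTR19-int gave 436 and 471 RPM in c-kit+ WT and 64.4, 77.0, 80.8 and 111 in CMP/GMP WT, without overlap, and missed the threshold (log2 fold change 2.43, SE 0.607; edgeR, adjusted p = 0.0583). MMERVK9E_I-int, at 18.0 and 18.9 against 5.37 to 9.64, missed it too (1.48, SE 0.397; adjusted p = 0.0727). RLTR25A differed by -1.78 (SE 0.497; adjusted p = 0.0867) and RLTR17B_Mm by -1.24 (SE 0.410; adjusted p = 0.156). The LTR RLTR19 differed by -0.26 (SE 0.5045, edgeR adjusted p = 0.900), and its groups overlapped. Leaving out c-kit+ WT 1 left 1 member called, where 0.0949% of subfamilies were called, and leaving out c-kit+ WT 2 left 0, where 0.0% were called. Without LT-HSC WT 1, which shares the estimate of the spread, 23 members and 7.64% of subfamilies were called, and without LT-HSC WT 2 12 members and 3.1%. Without CMP/GMP WT 1, 2 or 4, 2 members were called each time, with 0.694, 0.594 and 0.692% of subfamilies, and without MEP WT 4, 3 members and 0.793%. The neutrophil genes given above separate the c-kit+ libraries from the sorted ones in the same way, and their part in these differences was not tested.

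The genes that silence ERVK elements were read from a list of 25, all of them tested. In Dnmt3a KO against WT, edgeR called none in LT-HSC, CMP/GMP and MEP, where 0.0% of 12800, 13205 and 12323 genes were called, and none in c-kit+ cells, where 0.568% of 16026 were called. In these comparisons 0, 2, 5 and 4 of the 25 had an unadjusted p under 0.05, as did 151, 1196, 1607 and 2611 of all genes. DESeq2 called 0, 1, 1 and 1, counts given without the share of all genes it called. Dnmt1, the maintenance methyltransferase, averaged 195 ± 40.3 CPM (SD, n = 4) in CMP/GMP Dnmt3a KO and 324 ± 51.9 (n = 4) in WT (log2 fold change -0.74, SE 0.177; edgeR, adjusted p = 0.305). Dnmt3b, the other de novo methyltransferase, averaged 41.3 ± 1.53 CPM (n = 2) in c-kit+ Dnmt3a KO and 53.8 ± 2.28 (n = 2) in WT (-0.38, SE 0.121; edgeR, adjusted p = 0.183). Trim28 averaged 452 ± 244 CPM (n = 4) in MEP Dnmt3a KO and 223 ± 74.1 (n = 3) in WT (1.20, SE 0.529; edgeR, adjusted p = 0.376). Setdb1, the histone methyltransferase that Trim28 recruits, averaged 101 ± 41.4 and 61.9 ± 5.16 CPM in the same cells (0.87, SE 0.467; edgeR, adjusted p = 0.452).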

How the data were processed

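The deposited tables hold raw counts of reads for each gene symbol and each TE subfamily. Per the submitters' processing notes, the tools were Trim Galore 0.6.7, HISAT2 and featureCounts 2.0.1, and the genome build was mm10. The sources used here do not give the strand setting or how multi-mapping reads were assigned to TE subfamilies. Related subfamilies may therefore share reads, and reads of copies inside genes cannot be told apart from gene reads. All 40 TE columns were used. Of 40 gene columns 8, which repeat ST-HSC WT names, were not used, so ST-HSC has no gene scale.

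All TE subfamilies were fitted in R 4.3.3 with edgeR 4.0.16 and its quasi-likelihood test (filterByExpr, minimum count 10, minimum total 15). Library sizes and TMM factors came from the gene counts, and in ST-HSC fits from the TE counts. A subfamily was called at a Benjamini-Hochberg adjusted p under 0.05 over all subfamilies tested. Sorted populations were fitted alone, c-kit+ libraries together, and WT populations together. A term for sex used Xist and Y genes. Alternatives were DESeq2 1.42.0, RLE size factors, TE library sizes, no low-count filter, a replicate block, a sex term and leaving out each library. Replicates differed beyond sampling noise in every pair of libraries of a group. The closest pair was ST-HSC Dnmt3a KO 3 and 4, with a chi-square per degree of freedom of 5.18. Other sorted pairs ran from 20.8 to 466, and c-kit+ pairs from 9.45 to 35.0. The labels do not say whether ST-HSC Dnmt3a KO 3 and 4 came from the same sample. The scripts were tested on simulated data.

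The members, lists, alternatives and naming rule were chosen with earlier results of these data known. Always named were 13 members of well-known elements, the 6 members with the highest mean, and called members whose groups do not overlap. Other named members were chosen after their values were seen.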

Additional observations from a re-analysis of the deposited data

Results flagged for a closer look

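Values were looked at again where the highest or lowest library of a group stood far from its nearest neighbour, by Dixon's 95% critical value. This held for 28 of 161 groups tested, and chance gives about 1 in 20. Their causes were not tested.

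LT-HSC WT 1 and LT-HSC Dnmt3a KO 2, both with over 9 TE reads per 100 gene reads, gave 9 of these values, in reads per 1000000 gene reads. In LT-HSC WT 1 they were RLTR19-int at 468.8 (next library 84.98), MYSERV-int at 33.21 (14.71), RLTRETN_Mm at 29.28 (10.25), MMERVK9E_I-int at 20.56 (11.16) and ETnERV2-int at 19.37 (4.057). In LT-HSC Dnmt3a KO 2 they were RMER19B at 468.7 (247.8), MYSERV-int at 61.86 (15.92), ERVB7_2-LTR_MM at 34.15 (15.72) and ETnERV2-int at 27.06 (6.183). Per 1000 TE reads RLTR19-int still gave 3.782 in LT-HSC WT 1, the highest of its group.

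The same unit holds for the next values. MEP Dnmt3a KO 2, the shallowest library with gene counts, gave MYSERV-int at 49.13 (8.966) and RLTR45 at 12.79 (2.544), and MEP Dnmt3a KO 1 gave MMERVK10C-int low at 18.08 (29.36). LT-HSC WT 2 gave RLTR20A4 low at 66.63 (121.9). CMP/GMP WT 1 gave MMETn-int at 167.3 (79.48) and MMERVK9E_I-int at 9.642 (5.629), and CMP/GMP WT 4 gave RLTR10-int at 23.83 (18.09). CMP/GMP WT 3 gave RLTR17B_Mm low at 146.1 (163.6), RLTR10C low at 8.609 (12.29), ETnERV2-int at 3.04 (1.472), RLTR13A1 at 0.4816 (0.09011) and ERVB2_1-I_MM-int at 0.2709, where the other libraries had no read. ERVB2_1-I_MM-int was also seen in a single library of LT-HSC WT, replicate 3, at 0.5288.

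In ST-HSC the unit is reads per 1000 TE reads. MMETn-int stood at 2.093 (0.4836) in Dnmt3a KO 1 and at 1.634 (0.465) in WT 1, and RLTR13A1 at 0.0448 (0.003572) in Dnmt3a KO 1. Dnmt3a KO 2 was low for RLTR20A4 at 1.292 (1.758) and for RLTR10-int at 0.3569 (0.6442). ERVB2_1-I_MM-int had reads in WT 3 alone of its group, at 0.0075.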

How the results depend on the processing

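Members called changed as follows, and the causes were not tested. The percentage in brackets is the share of all TE subfamilies called under the same setting. DESeq2 called 6 in MEP Dnmt3a KO (3.03%), 2 in c-kit+ Dnmt3a KO (0.873%), 5 in c-kit+ DKO against WT (0.983%), 54 in LT-HSC against CMP/GMP (28.3%), 24 against MEP (13.0%), 1 in CMP/GMP against MEP (0.415%), 14 in c-kit+ against CMP/GMP (4.94%) and 1 in the F-test (0.296%). RLE size factors called 28 in LT-HSC against CMP/GMP (12.9%). TE library sizes called 2 in LT-HSC against MEP (0.933%), 24 in c-kit+ against CMP/GMP (6.74%) and 1 in the F-test (0.196%). Without a filter, 3 were called in c-kit+ Dnmt3a KO (1.175%), 5 in DKO against WT (0.995%) and 2 in LT-HSC against MEP (0.723%). A term for sex gave 0 in DKO against Dnmt3a KO (0.0%), 34 in LT-HSC against CMP/GMP (15.97%), 3 against MEP (0.998%) and 1 in CMP/GMP against MEP (0.1996%). Without the libraries above 9 TE reads per 100 gene reads, a setting chosen after seeing the data, 1 was called in MEP (0.518%), 9 and 3 in LT-HSC against CMP/GMP (3.02%) and MEP (1.56%), 1 in CMP/GMP against MEP (0.520%) and 23 in c-kit+ against CMP/GMP (7.64%).

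Same-numbered libraries did not deviate together in every pair of any comparison (correlations of -0.178 to 0.194), so the numbers were not taken as pairs. With a replicate block the calls were 4 in c-kit+ Dnmt3a KO (1.39%), 6 in DKO against WT (1.71%), 2 against Dnmt3a KO (0.534%) and 7 against Sting KO (1.28%), 10 in LT-HSC against CMP/GMP (4.99%), 16 against MEP (7.285%), 1 in CMP/GMP against MEP (0.499%) and 10 in c-kit+ against CMP/GMP (2.67%).

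Leaving out each library gave 0 to 67 in MEP, 0 to 6 in c-kit+ Dnmt3a KO, 0 to 2 in Sting KO, 0 to 4 in DKO against WT, 1 to 2 against Dnmt3a KO, 0 to 7 against Sting KO, 0 to 71 in LT-HSC against CMP/GMP, 0 to 45 against MEP, 0 to 1 in CMP/GMP against MEP, 0 to 23 in c-kit+ against CMP/GMP and 0 to 43 in the F-test. The 67 (44.0%) and 43 (18.05%) came without MEP Dnmt3a KO 1, the 71 (39.9%) and 45 (23.9%) without LT-HSC WT 2, the 6 (2.09%) and, in Sting KO, 2 (0.5495%) without DKO 2 and the 4 (1.43%) and 7 (1.32%) without DKO 3. Silencing genes called were 1 by DESeq2 in CMP/GMP, MEP and c-kit+ cells, 1 without a filter in c-kit+ cells, and 0 to 9 in MEP and 0 to 1 in c-kit+ cells when each library was left out. The shares of all genes called under these settings are not given here, so these counts say nothing particular about the silencing genes.

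The log2 ratio of summed members on gene reads moved as a share of TE reads from -0.20 to 0.026 in CMP/GMP, 0.83 to -0.12 in MEP, 0.10 to -0.037 in c-kit+ Dnmt3a KO, 0.92 to 0.012 in LT-HSC against CMP/GMP, 0.85 to 0.029 against MEP and 0.66 to 0.84 in c-kit+ against CMP/GMP. Without the libraries above 9 TE reads per 100 gene reads it was -0.51 in MEP. Internal parts alone gave 0.055 in c-kit+ Dnmt3a KO, 0.20 in Sting KO, -0.28 in DKO against Sting KO, -0.36 in CMP/GMP against MEP, 0.11 in LT-HSC against ST-HSC and 1.90 in c-kit+ against CMP/GMP. LTRs alone gave 0.15 in c-kit+ Dnmt3a KO, -0.020 in Sting KO, 0.094 in DKO against Sting KO and -0.011 in c-kit+ against CMP/GMP. Of the single-member values, 8445 kept their side of the threshold, 33 lost and 241 gained a call, and 0 called values changed sign. Between 220 and 245 of the 260 members passed the filter on low counts in these fits.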

Other observations

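The library numbered 1 held the highest share of MMETn-int among TE reads in 6 of the 8 sorted groups, and also the highest share of RLTRETN_Mm in 6 of 8 and of ETnERV-int in 4 of 8. In MEP Dnmt3a KO 1, MMETn-int gave 14.2 reads per 1000 TE reads, against 0.839 to 1.66 in the other 3 libraries of that group. This was noticed in the data, and the labels do not say what a library number shares across groups.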
